A study of Mus musculus with 2 samples.

Results

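The cells described here were hormone-responsive luminal cells of the mouse mammary gland that carried much Fgb and Upk3a transcript. Fgb encodes the beta chain of fibrinogen and Upk3a encodes a uroplakin. They numbered 1423 cells, 368 in the control (Ctrl) library and 1055 in the clodronate liposome (CL) library, out of 4744 hormone luminal cells and 15632 cells kept in all. A cell counted as hormone luminal when Krt8 and Krt18 together had at least 10 UMIs and more than Krt5, Krt14 and Krt17, Ptprc had none, and Prlr, Areg, Cited1 and Ptn together had more than 2 times the UMIs of Ltf, Wfdc18, Csn3, Aldh1a3 and Plet1. A UMI is the tag that marks 1 captured transcript. From these, cells were chosen by their own Fgb and Upk3a values, at least 0.1% of a cell's UMIs for the sum of both, and by fewer than 5 UMIs of Aoc1. The remaining hormone luminal cells with fewer than 5 Aoc1 UMIs, 1161 in Ctrl and 1519 in CL, are called Fgb/Upk3a-low cells below and serve as the nearest comparison. The levels of Fgb and Upk3a themselves are thus given as a description only.

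Luminal cells with receptors for estrogen, progesterone and prolactin sense ovarian and pituitary hormones and signal to their neighbours through secreted ligands such as amphiregulin (Areg). Fibrinogen is a clotting protein assembled from alpha, beta and gamma chains (Fga, Fgb and Fgg) that the liver secretes in large amounts and raises in the acute phase response, driven mainly by IL-6 and STAT3. Uroplakins are membrane proteins best known from the plaques on the surface of the bladder epithelium, where UPIIIa pairs with UPIb.

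Glands of adult wild-type female mice labelled 9 to 10 weeks old were used, with 8 to 10 weeks in the protocol text. The Ctrl group is labelled control, and the CL group received clodronate liposomes, an agent that kills phagocytic cells, by repeated intraperitoneal injection. No strain is given in the labels. Both groups were sorted for CD45+ immune cells and for cells lacking CD31 and TER119, and how the fractions were pooled and how many mice entered each library are not given in the sources used here. Each group was a single 10x Genomics library, so there is no replicate. No test between groups was made, and every interval below is a 95% interval of counting error only.

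The matrices held 118743318 UMIs in Ctrl and 155765480 in CL, and 6297 and 9335 cells were kept, with medians of 11910 and 10853 UMIs. The macrophage markers summed to 118 CPM (UMIs scaled to a total of 1000000) over all kept Ctrl cells. Over all kept CL cells they summed to 352 CPM, which is higher although clodronate liposomes kill phagocytic cells. Within Ptprc-positive cells with few or no Krt8 and Krt18 UMIs, 1.95% of kept cells in Ctrl and 4.60% in CL, they summed to 5793 and 5577 CPM. These cells held 3700 of the 11254 macrophage marker UMIs of all kept cells in Ctrl and 11779 of 45983 in CL. There the complement genes of macrophages were lower in CL, as with C1qa (763 and 279 CPM). Csf1r (111 and 63.4 CPM) and Adgre1 (93.9 and 42.1 CPM) were lower as well, while Lyz2 was higher (456 and 2061 CPM). The markers thus ran both ways. Basal cells, by their keratins, made up 6.29% of kept cells in Ctrl and 4.48% in CL. The libraries are named below only as labelled. The libraries shared 22 barcodes, of which 1 belonged to a chosen cell in each library. The chosen cells were deep, with medians of 21501.5 UMIs in Ctrl and 18110 in CL, against 19439 and 16542 in the Fgb/Upk3a-low cells.

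Of the fibrinogen genes, Fgb and Fgg were abundant in these cells and Fga had at most 4 UMIs in a library's chosen cells, although the 3 lie side by side. In GENCODE M21 (GRCm38, the assembly also called mm10) Fgg spans chr3:83007724-83015049 on the plus strand, Fga chr3:83026076-83033627 on the plus strand and Fgb chr3:83040141-83049863 on the minus strand. Upk3a lies at chr15:85017141-85022547 on the plus strand. The 250 bases upstream of the RefSeq transcription starts (GRCm38.p6) of the 3 genes whose levels set these cells apart are shown 5′ to 3′ on the gene's strand, because Fgb and Upk3a defined the cells and Fgg was the most abundant of the genes outside the rule that were at least 2-fold higher in them. Capitals mark CTGGGA, the core of the IL-6 response elements of fibrinogen genes, searched on both strands. The windows are chr3:83007474-83007723 for Fgg, chr3:83049864-83050113 for Fgb (minus strand) and chr15:85016891-85017140 for Upk3a.
Fgg: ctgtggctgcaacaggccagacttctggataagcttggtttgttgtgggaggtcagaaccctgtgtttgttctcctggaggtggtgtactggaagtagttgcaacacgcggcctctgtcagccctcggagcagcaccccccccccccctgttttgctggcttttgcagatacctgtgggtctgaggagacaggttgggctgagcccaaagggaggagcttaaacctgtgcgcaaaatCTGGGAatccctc
Fgb: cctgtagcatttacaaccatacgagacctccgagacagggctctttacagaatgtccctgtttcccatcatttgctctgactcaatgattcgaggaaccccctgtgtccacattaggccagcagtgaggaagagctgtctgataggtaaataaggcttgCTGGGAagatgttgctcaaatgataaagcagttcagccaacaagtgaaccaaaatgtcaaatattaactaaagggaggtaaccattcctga
Upk3a: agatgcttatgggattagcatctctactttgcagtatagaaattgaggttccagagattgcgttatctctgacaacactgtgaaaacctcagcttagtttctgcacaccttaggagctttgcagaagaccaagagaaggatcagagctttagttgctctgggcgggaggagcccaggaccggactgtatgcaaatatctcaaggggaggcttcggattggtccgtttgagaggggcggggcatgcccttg
CTGGGA had 1 match upstream of Fgg, with its first base 13 bases before the start, 1 upstream of Fgb at 91 bases and none upstream of Upk3a. Fga, which was nearly silent here, had 1 match as well, at 121 bases. The motif is common, since 27% of 32851 promoter windows of this length held it. The STAT-type motif TTCNNNGAA, found in 7.02% of the windows, had 1 match upstream of Fgb, 1 upstream of Fga and none upstream of Fgg or Upk3a. A match is a string of letters and not a measured binding site.

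Fgb plus Upk3a formed no separate peak in the hormone luminal cells, and the 0.1% limit cut through a continuous tail. Among those with fewer than 5 Aoc1 UMIs, 35.5% of Ctrl cells and 18.8% of CL cells had no UMI of either gene. In the chosen Ctrl cells the summed share ran from 0.102% of a cell's UMIs through a median of 0.230% to 3.29%. In the chosen CL cells the median was 0.282% and the highest 2.75%. The typical cell was therefore past the limit by more than 2 times, and only 2 Ctrl and 7 CL cells reached it with fewer than 5 UMIs of both genes together. Just outside the limit, from 0.08 to 0.1%, lay 54 Ctrl and 90 CL cells, and just inside, up to 0.12%, lay 40 and 85. Fgg was at 1021 CPM just outside and 1028 CPM just inside in Ctrl, and at 1080 and 1258 CPM in CL.

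**Figure D1:**
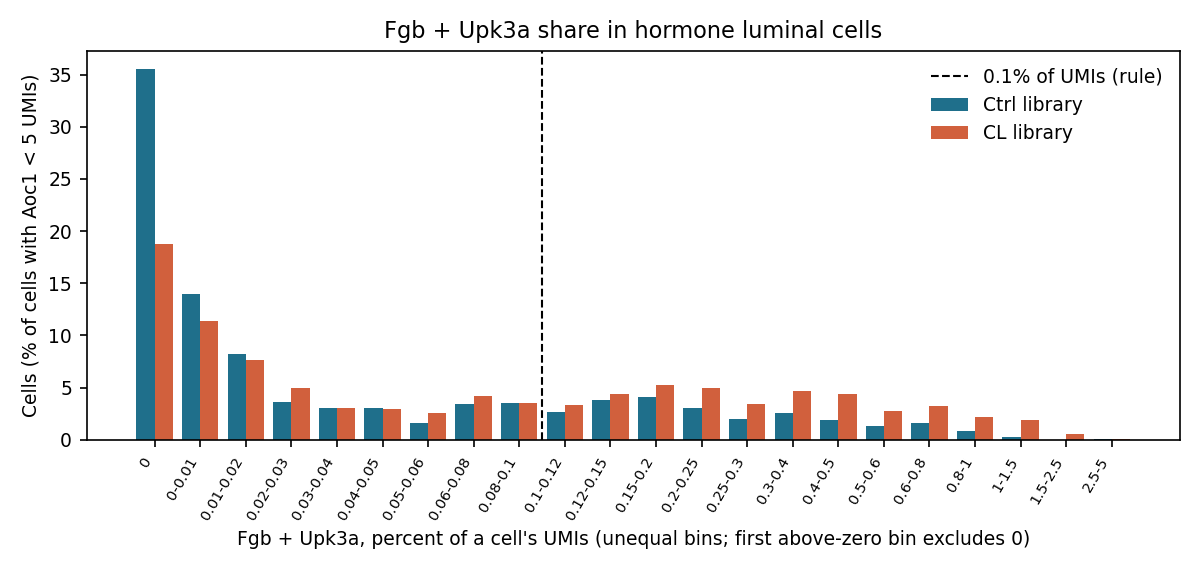
Share of Fgb plus Upk3a in each hormone luminal cell with fewer than 5 Aoc1 UMIs, in unequal bins on the horizontal axis, with the percentage of each library's cells on the vertical axis. The first bar holds cells at 0 (35.5% in Ctrl, 18.8% in CL), and the dashed line is the 0.1% limit.

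The library labelled CL held a larger share of these cells. They made up 17.4% [15.8, 19.1] of hormone luminal cells in Ctrl and 40.1% [38.2, 41.9] in CL, a log2 ratio of 1.20 [1.03, 1.37]. This denominator includes the cells with 5 or more Aoc1 UMIs, which were 27.5% of hormone luminal cells in Ctrl and 2.28% in CL. Without them the shares were 24.1% [21.9, 26.3] and 41.0% [39.1, 42.9], and the log2 ratio was 0.77 [0.60, 0.94]. Over all kept cells the shares were 5.84% and 11.3%. With 1 library per group, treatment and library cannot be told apart.

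Free transcript in the droplets was measured in 2 ways. Droplets of 100 to 300 UMIs were taken as empty by their UMI total alone. In them Fgb and Upk3a summed to 0.0462% of UMIs in Ctrl and 0.0846% in CL, below the limit in both but higher in CL. In secretory luminal cells, the neighbouring lineage, they summed to 0.00260% and 0.00566%, and 4 of 2763 Ctrl cells (0.145%) and 18 of 4070 CL cells (0.442%) reached the limit. Median depths there were 9981 and 9486 UMIs. When each hormone luminal cell was thinned to 7228 UMIs before the limit was applied, the shares were 17.4% and 39.5%.

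The markers of hormone-responsive luminal cells were present throughout. Prlr, the prolactin receptor, was found in 99.7% of chosen Ctrl cells and 99.5% of chosen CL cells, at 2657 and 2373 CPM of the summed UMIs. Cited1, a transcriptional coregulator of this lineage, was at 1481 and 1577 CPM. Both genes belong to the gate, which selected for them equally in the Fgb/Upk3a-low cells. Prlr was lower in the chosen cells than in the low cells (3221 CPM in Ctrl and 2721 in CL), with log2 ratios of -0.28 [-0.30, -0.26] and -0.20 [-0.21, -0.18]. Cited1 was higher than in the low cells (976 and 1182 CPM), by 0.60 [0.57, 0.63] and 0.42 [0.39, 0.44]. The hormone receptors outside the gate differed little between chosen and low cells. Esr1, the estrogen receptor, was at 108 and 99.5 CPM in the chosen cells and 116 and 108 CPM in the low cells. Pgr, the progesterone receptor, was at 136 and 107 CPM against 153 and 102 CPM, with a log2 ratio of -0.17 [-0.27, -0.07] in Ctrl and 0.06 [-0.02, 0.14] in CL. Ly6a, a surface protein gene that is also outside the gate, was lower in the chosen cells, by -0.36 in Ctrl and -0.12 in CL.

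Fgg, the gamma chain, was the marker that the rule had not used, and it was high in these cells. It was at 1382 CPM in Ctrl and 1673 CPM in CL, against 415 and 786 CPM in the low cells. The log2 ratio of chosen over low cells was 1.73 [1.70, 1.77] in Ctrl and 1.09 [1.06, 1.11] in CL, and the low cells stood higher in CL. At 7228 UMIs per cell, Fgg was found in 78.9% of chosen and 48.7% of low cells in Ctrl, and in 85.7% and 70.4% in CL (85.1%, 63.7%, 92.0% and 80.3% without thinning). Thinned secretory luminal cells had 11.2% and 18.6%. Thinning left out 32 and 96 chosen cells. Empty droplets held 392 and 638 CPM of Fgg, so the low cells lay close to that level and the chosen cells well above it. Fga had 0 UMIs in the chosen Ctrl cells, where 3 counts would be 0.366 CPM, and 4 UMIs in the chosen CL cells. Of the other acute phase genes Saa2, Apcs and Orm2 had no UMI in any of the chosen cells, Hp (haptoglobin) was at 288 and 270 CPM and below its 324 and 365 CPM in low cells, and Lbp stayed under 1 CPM. The uroplakin partners were nearly absent too. Upk1b was at 0.73 and 0.63 CPM and Upk1a at 0.24 and 0.67 CPM, while Upk2 was at 50.5 and 30.3 CPM and lower than in the low cells (73.7 and 41.2 CPM).

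**Figure D2:**
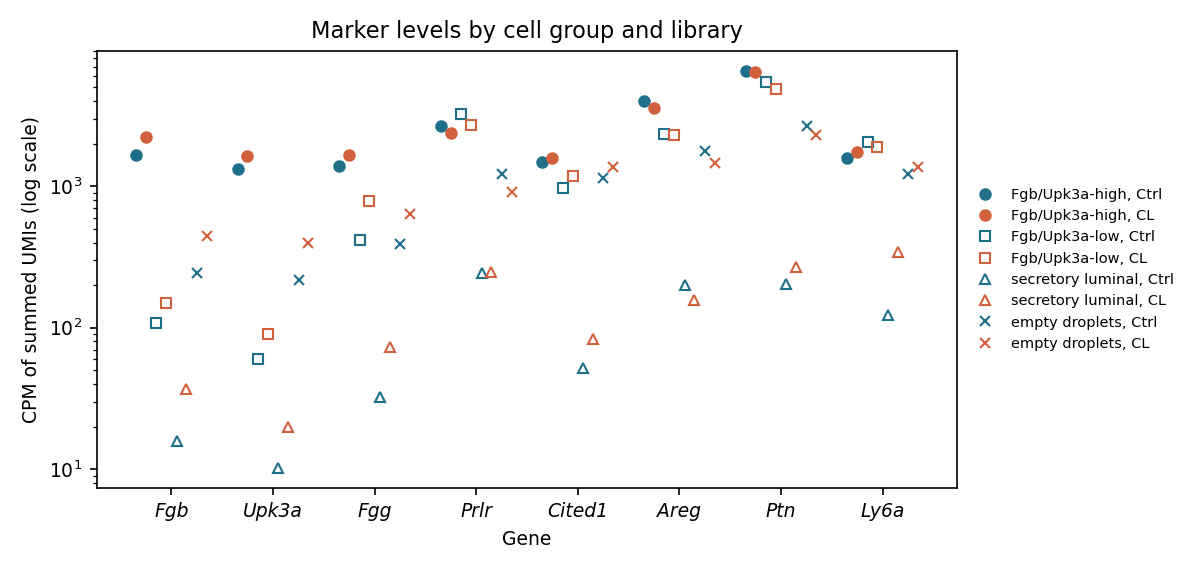
CPM of summed UMIs (log scale) for 8 genes in the Fgb/Upk3a-high cells (filled circles), Fgb/Upk3a-low cells (squares), secretory luminal cells (triangles) and empty droplets (crosses), in blue for Ctrl and orange for CL. Fgb and Upk3a chose the cells, and Fgg, which did not, was at 1382 and 1673 CPM in them against 415 and 786 CPM in the low cells.

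Across the genes above a minimum level the chosen cells were close to the low cells. Fgb and Upk3a left aside, 2551 genes reached 50 CPM and 50 UMIs in the group where they were higher, in both libraries. Of these 3 were at least 2-fold higher in both libraries (0.118% of those tested) and 3 at least 2-fold lower (0.118%). The median log2 ratio was -0.01 in Ctrl and -0.02 in CL. Pir, Itih2 and Fgg were the higher ones. Pir, a nuclear iron-binding protein, was at 123 CPM in chosen and 40.2 CPM in low Ctrl cells and at 201 and 66.8 CPM in CL, with log2 ratios of 1.62 [1.49, 1.75] and 1.59 [1.51, 1.67]. Itih2, a heavy chain of the inter-alpha-trypsin inhibitor, which like fibrinogen is best known as a liver product, was at 97.2 and 36.4 CPM in Ctrl and at 97.6 and 26.6 CPM in CL, by 1.41 [1.27, 1.56] and 1.87 [1.75, 2.00]. With Fgb alone as the rule the Ctrl ratios were 0.92 for Pir and 0.76 for Itih2, below 2-fold. With Upk3a alone as the rule the ratio of Fgg was 0.29 in Ctrl and 0.14 in CL, below 2-fold in both. With at most 5% mitochondrial UMIs it was 0.9886 in CL, slightly below 2-fold. All 3 lay above their empty droplet levels, which were 43.4 and 81.1 CPM for Pir and 21.0 and 21.4 CPM for Itih2.

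The next genes in this order moved less. Hilpda, a lipid droplet protein, had log2 ratios of 1.00 and 0.80 but lay at 62.5 and 57.4 CPM, under the empty droplets' 114 and 120.0 CPM. R3hdml was higher by 0.75 and 0.87, and Ramp1, a partner of calcitonin-type receptors, by 0.88 and 0.65. Ramp1 was at 102 and 54.4 CPM, against 63.2 and 52.9 CPM in empty droplets. Secretory luminal cells held 111 CPM of it in both libraries. Areg, the amphiregulin gene that relays estrogen to the ductal epithelium and is part of the gate, was at 4000 and 3596 CPM against 2325 and 2320 CPM, by 0.78 [0.76, 0.80] and 0.63 [0.62, 0.65]. Foxq1, a transcription factor, Golim4, Fam107b, the tight junction gene Cldn10 and the small GTPase gene Rnd3 completed the 12, with ratios between 0.46 and 0.77 in the 2 libraries. Of these 5, Fam107b and Rnd3 lay below or near their empty droplet levels (207 and 183 CPM for Fam107b, 64.4 and 57.4 CPM for Rnd3) and were higher in secretory luminal cells.

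The genes lower in the chosen cells were led by Dcn, Fxyd2 and Ido1, the 3 that passed 2-fold. Dcn, the proteoglycan decorin, was at 25.2 and 24.1 CPM in chosen and 179 and 159 CPM in low cells, ratios of -2.82 [-3.03, -2.62] and -2.72 [-2.86, -2.59]. It is also a fibroblast marker, and empty droplets held 296 and 177 CPM of it. In each library 95.01% of its UMIs in the low cells lay in 10% of those cells, with up to 360 in a single cell. Without cells that had 3 or more UMIs of other lineages' markers, a count in which Dcn itself takes part, its ratios were -0.25 in Ctrl and -0.18 in CL and no longer past 2-fold. Fxyd2, a regulator of the sodium pump, was at 167 CPM in chosen and 842 CPM in low Ctrl cells, and at 52.4 and 450.0 CPM in CL, by -2.34 [-2.42, -2.26] and -3.10 [-3.19, -3.01]. Ido1, the enzyme that breaks down tryptophan, was at 200.3 and 599 CPM in Ctrl and at 133 and 352 CPM in CL, by -1.58 and -1.40. Empty droplets held 624 and 224 CPM of Fxyd2 and 382 and 193 CPM of Ido1. These levels lay above the chosen and below the low cells in both libraries. At 7228 UMIs per cell Fxyd2 was found in 30.7% of chosen and 56.3% of low Ctrl cells and in 14.3% and 43.0% in CL (57.9%, 69.9%, 24.3% and 53.8% without thinning). Tppp3, Fam3c, Rasgrf1, the interferon-inducible Iigp1, Fxyd6, Crip1, Man1a, the chloride channel regulator Clca3a2 and the desaturase Scd2 followed, with ratios from -1.17 to -0.52 in Ctrl and from -1.09 to -0.58 in CL. In the chosen cells Tppp3, Fxyd6 and Crip1 lay below their empty droplet levels in both libraries, and the others in only Ctrl or only CL.

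When the cells were grouped into bands of Fgb plus Upk3a, the last band had more Fgg, Itih2 and Areg than the first, and less Ido1, Fxyd2 and Dcn. From cells at 0 to cells at 0.5% or more, Fgg went from 313 to 2128 CPM in Ctrl and from 534 to 2237 CPM in CL, with each band above the one before in both libraries. Itih2 went from 16.6 to 118 CPM in Ctrl and from 12.9 to 145 CPM in CL. Ido1 went from 770.1 to 50.03 CPM and from 458 to 104 CPM, and in Ctrl it was still at 217 CPM in the band before the last. Fxyd2 went from 1175 to 67.7 CPM in Ctrl and from 796 to 11.1 CPM in CL, though not at every step, since the Ctrl bands ran from 887 CPM at 0 to 0.02% through 214 CPM at 0.02 to 0.05% to 340 CPM in the next. Dcn went from 65.8 CPM in the band below the limit to 15.2 CPM in the band above it in Ctrl and from 100.3 to 26.8 CPM in CL. It did not fall at every step, with 40.5 CPM at 0.2 to 0.5% and 13.1 CPM above in Ctrl. In CL these bands had 18.2 and 31.0 CPM. Areg went from 1947 to 5276 CPM in Ctrl, with each band above the one before, whereas in CL it reached 3751 CPM at 0.2 to 0.5% and was at 3501 CPM above. Pgr did not follow, with 158 CPM at 0 and 161 CPM at 0.5% or more in Ctrl and 108 and 118 CPM in CL. The bands held between 62 and 543 cells in Ctrl and between 262 and 490 in CL.

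**Figure D3:**
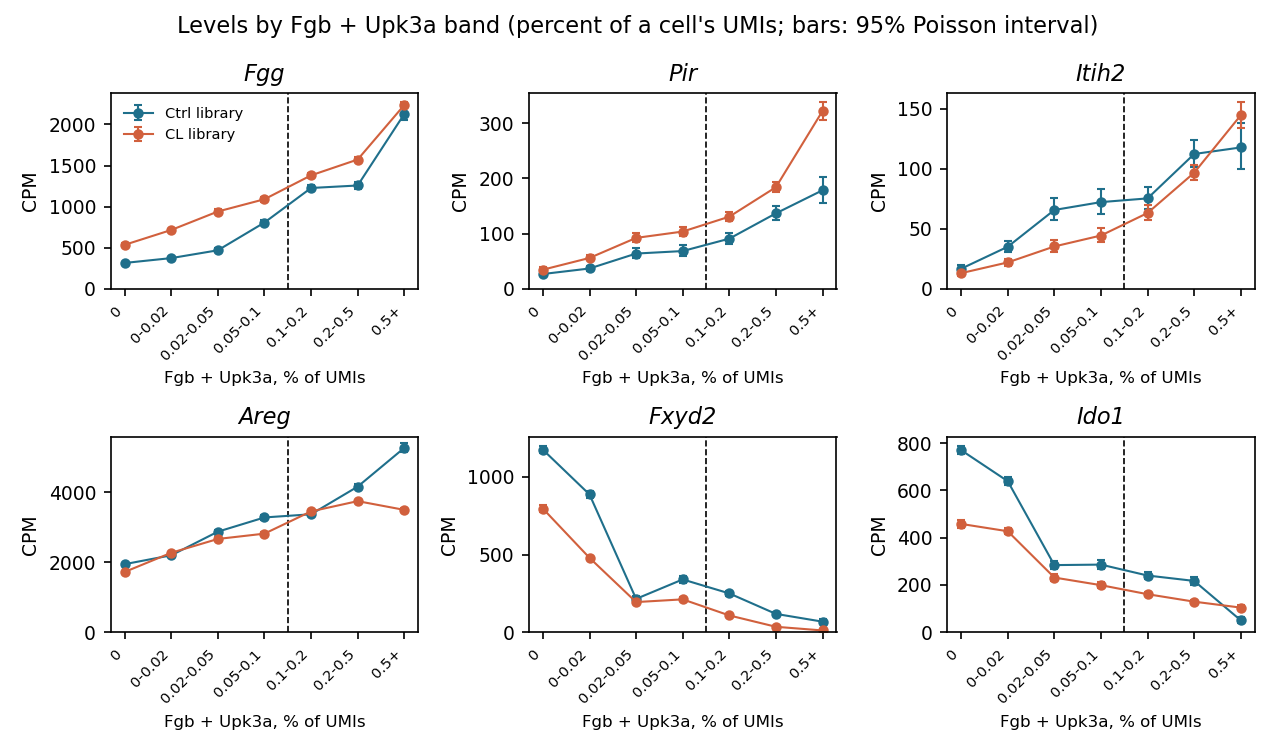
CPM of 6 genes (vertical axes, with 95% Poisson intervals) in hormone luminal cells with fewer than 5 Aoc1 UMIs, grouped by Fgb plus Upk3a as a percentage of the cell's UMIs (horizontal axes), in blue for Ctrl and orange for CL. The dashed line is the 0.1% limit. Fgg, Pir and Itih2 are higher and Fxyd2 and Ido1 lower in the last band than in the first, with steps on both sides of the line.

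The chosen cells differed in which of the 2 genes had UMIs. Of them, 63.9% in Ctrl and 77.8% in CL had UMIs of both, 27.2% and 15.4% had Fgb alone, and 8.97% and 6.82% had Upk3a alone. The rule bears on this split, because a cell that lacked one gene had to reach the limit on the other. Fgb itself was at 2193 CPM with Fgb alone and 1670 CPM with both in Ctrl, and at 2737 and 2298 CPM in CL. Fgg was highest with Fgb alone and lowest with Upk3a alone in both libraries. It was at 2197 CPM [2131, 2264] in the 100 Ctrl cells with Fgb alone, 1230 CPM [1202, 1260] in the 235 with both and 284 CPM [245, 327] in the 33 with Upk3a alone. In CL it was at 2643 CPM in 162 cells, 1586 CPM in 821 and 622 CPM in 72. The cells with Upk3a alone have no Fgb by construction, whereas some low cells have it. Their Fgg lay below that of all low cells of their library (415 and 786 CPM), while cells with no UMI of either gene had 313 CPM in Ctrl, inside the interval of 245 to 327 CPM, and 534 CPM in CL, below the 622 CPM.

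Pir, Itih2, Fxyd2 and Ido1 differed more with Upk3a than with Fgb alone. Itih2 was at 114 CPM [90.3, 143] with Upk3a alone and 114 CPM with both but at 41.7 CPM [33.1, 51.8] with Fgb alone in Ctrl, and at 98.4, 108 and 35.5 CPM in CL. Pir was at 111 CPM with Upk3a alone, 59.2 CPM with Fgb alone and 147 CPM with both in Ctrl, and at 127, 90.7 and 224 CPM in CL, so that it was highest where both were present. Fxyd2 was at 31.2 CPM with Upk3a alone and at 430 CPM with Fgb alone in Ctrl, and at 15.1 and 209 CPM in CL. Ido1 was at 87.7 and 412 CPM in Ctrl and at 103 and 273 CPM in CL. Prlr was lower with Upk3a alone (2103 CPM in Ctrl, 2409 CPM in CL) than with Fgb alone (3352 and 2822 CPM).

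**Figure D4:**
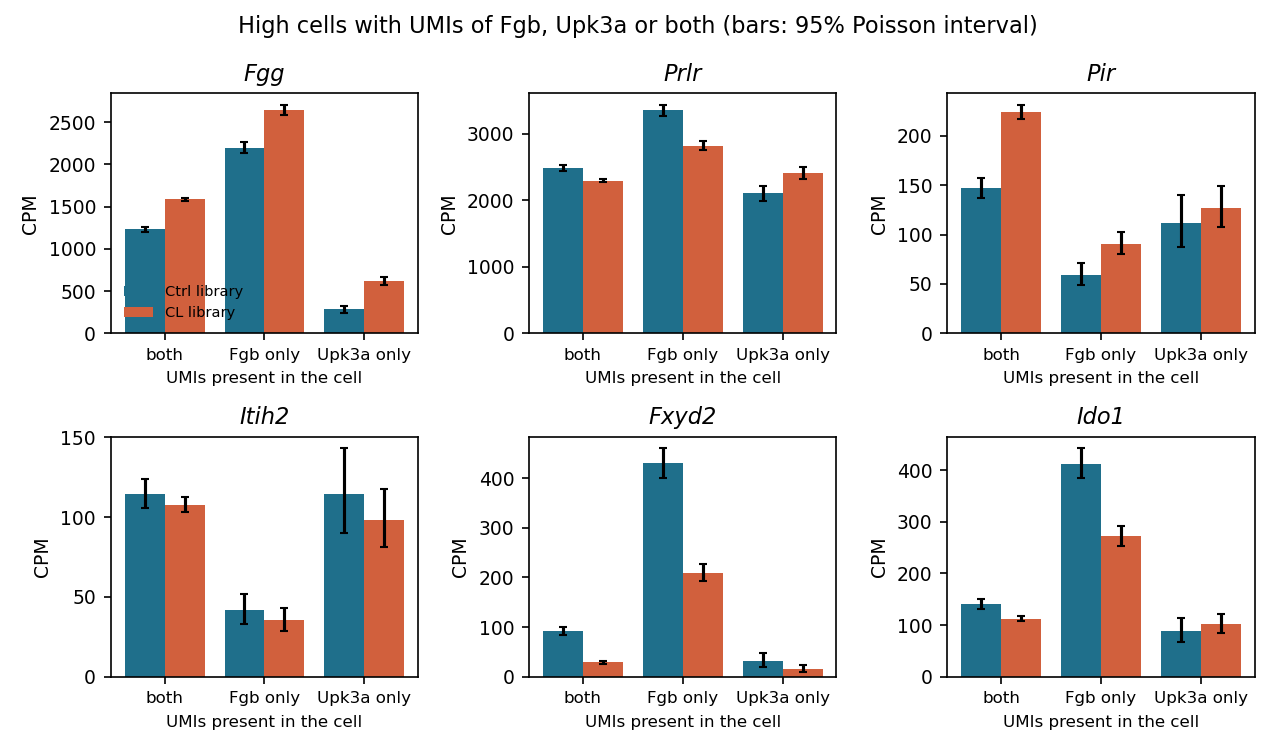
CPM of 6 genes (vertical axes, with 95% Poisson intervals) in Fgb/Upk3a-high cells that had UMIs of both Fgb and Upk3a, of Fgb only or of Upk3a only, in blue for Ctrl and orange for CL. Fgg is highest with Fgb only (2197 and 2643 CPM), and Fxyd2 and Ido1 are lowest where Upk3a is present.

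The rule was also run on 1 gene at a time. With Fgb alone at 0.1% or more, the log2 ratio of Fgg over the remaining cells was 2.19 in Ctrl and 1.29 in CL, and with Upk3a alone it was 0.29 and 0.14. Over all hormone luminal cells with fewer than 5 Aoc1 UMIs, each thinned to 7228 UMIs, the rank correlation across cells of Fgb with Fgg was 0.391 in 1362 Ctrl cells and 0.395 in 2310 CL cells. That of Upk3a with Fgg was 0.0618 and 0.0697, and that of Fgb with Upk3a was 0.228 and 0.349. For Pir the correlation was 0.315 and 0.419 with Upk3a and 0.167 and 0.295 with Fgb. For Itih2 it was 0.299 and 0.345 with Upk3a and 0.216 in both libraries with Fgb. For Fxyd2 it was -0.288 and -0.353 with Upk3a and -0.207 and -0.299 with Fgb, and for Ido1 -0.285 and -0.219 with Upk3a and -0.188 and -0.155 with Fgb. These cells share a library and a depth, and the correlations are descriptions across cells.

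By role, the acute phase list without Fgb stood higher in the chosen than in the low cells through Fgg. That sum was 1892 CPM against 984 CPM in Ctrl and 2399 CPM against 1568 CPM in CL. With Fgg left out as well it was lower in the chosen cells, at 510.3 CPM against 569 CPM in Ctrl, a log2 ratio of -0.16 [-0.21, -0.11], and at 726 CPM against 781 CPM in CL, -0.11 [-0.14, -0.08]. Of the 3 genes of the list that passed, Fgg was higher and Hp lower in both libraries, and Lcn2 was lower in Ctrl and higher in CL. Paracrine ligands together had 11068 CPM (Ctrl) and 10617 CPM (CL) against 8370 and 7826 CPM in low cells, a sum set by Areg and by Ptn (pleiotrophin), which was at 6564 and 6438 CPM, with summed ratios of 0.40 and 0.44. Both genes belong to the gate. Without them the ligands summed to 504 and 582 CPM against 610.3 and 645 CPM, ratios of -0.27 [-0.33, -0.22] and -0.15 [-0.18, -0.11]. Of the 5 ligands that passed the filter, 2 were higher in both libraries, which were Areg and Ptn, 2 were lower in both, and none passed 2-fold. Wnt4, a progesterone target, was among the lower at 268 and 328 CPM against 339 and 379 CPM. Of the 9 hormone receptors and regulators that passed, 2 were higher (Cited1 and Runx1, at 592 and 659 CPM) and 4 lower in both libraries, where 30.9% of all 2551 genes tested were higher in both and 39.8% lower in both. The IL-6 family list had 9 genes passing, of which 3 were higher and 4 lower in both libraries, with summed ratios of -0.09 and -0.04. Stat3 was at 165 and 165 CPM in chosen cells and 157 and 152 CPM in low cells, and Socs3, its feedback inhibitor, at 344 and 303 CPM against 385 and 337 CPM. In the clotting list F3, the tissue factor gene that starts coagulation, was at 1266 and 1257 CPM, slightly above the low cells (1178 and 1063 CPM), and Plaur, the urokinase receptor gene, was at 133 and 167 CPM against 103 and 144 CPM. Empty droplets held more Plaur, 352 and 295 CPM. These 2 were the genes of the list that passed, and the list as a whole had 1445 and 1461 CPM against 1327 and 1243 CPM. Other thrombin-pathway and plasmin-pathway genes such as F5, F10 and Serpinb2 stayed under 1 CPM. All 13 immediate early and stress genes passed, 7 were higher and 3 lower in both libraries, and their sums differed by 0.07 and 0.19. The luminal keratin and adhesion list differed by -0.06 and -0.07, membrane transport by -0.14 in both, TNF and NF-kB by -0.17 and -0.07, PI3K signalling by -0.01 and -0.19, and the interferon list by -0.11 and -0.40.

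Cells with 5 or more Aoc1 UMIs were the other hormone luminal group. They numbered 581 in Ctrl and 60 in CL, and 60 and 7 of them also reached 0.1% of Fgb plus Upk3a. The chosen cells had more Itih2 than they did, by 2.57 [2.35, 2.79] in Ctrl and 2.97 [2.31, 3.73] in CL. They had less Ido1, by -2.18 and -2.28, and less Pgr, by -0.81 [-0.91, -0.71] and -0.62 [-0.82, -0.43].

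Between the libraries the chosen cells differed in few genes. Among 2739 genes that passed the filter, 10 were at least 2-fold higher in CL (0.365%) and 15 at least 2-fold lower (0.548%), and the median log2 ratio was -0.02. Of the 12 highest, 10 are described here, and all of the 12 lowest, beside the low cells of the same libraries. R3hdml, at 219 and 403 CPM, was higher in CL by 0.88 [0.81, 0.95] and stood above its empty droplet level. Cxcl17, a mucosal chemokine, was at 51.4 and 105 CPM, a ratio of 1.03 in both the chosen and the low cells, and 0.76 with Fgb alone as the rule. Kcnh1, a potassium channel gene, was at 25.8 and 54.2 CPM (1.07), and its ratio was 0.96 with Fgb alone as the rule. Lrg1, an acute phase glycoprotein gene, was at 40.8 and 116 CPM, a ratio of 1.501 [1.34, 1.67] in the chosen cells and 0.91 [0.81, 1.02] in the low cells, and lay below its empty droplet level in Ctrl (110.4 CPM) and slightly above it in CL (100.1 CPM). Cp, the ceruloplasmin gene, went from 24.6 to 55.2 CPM (1.16) and Gbp2, an interferon-inducible GTPase, from 31.5 to 66.3 CPM (1.08), both below the empty droplets of their library (52.4 and 81.4 CPM for Cp, 36.0 and 285 CPM for Gbp2). With a limit of 0.2% the ratio of Cp was 0.80, and with Aoc1 at 0 UMIs that of Gbp2 was 0.997. In the low cells the ratios were 0.76 for R3hdml, 0.74 for Kcnh1, 1.38 for Cp and 1.75 for Gbp2.

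Ltf, Wfdc18, Lcn2 and Cxcl2 completed the higher genes described, and all 4 are abundant in secretory luminal cells. Ltf (lactoferrin) was at 8.66 CPM in Ctrl and 51.6 CPM in CL, a ratio of 2.58 [2.23, 2.94], against 201 and 358 CPM in empty droplets and 1469 and 2191 CPM in secretory luminal cells. The 10% of chosen CL cells with most Ltf held 84.8% of its UMIs. Lcn2 went from 190 to 394 CPM with 2141 and 3031 CPM in empty droplets, and Wfdc18 from 76.8 to 179 CPM with 938 and 1245 CPM. Cxcl2 went from 61.3 to 120.3 CPM (0.97), with 92.8% of its CL UMIs in 10% of the cells. In the low cells the ratios were 0.76 for Ltf, 0.46 for Wfdc18, 0.68 for Lcn2 and 0.12 for Cxcl2. Ltf and Wfdc18 count against a cell in the gate. Without cells that had 3 or more UMIs of other lineages' markers the ratio of Lcn2 was 0.50, and with the gate's factor of 2 removed that of Wfdc18 was 0.54. The part of free transcript in these 4 ratios was not tested.

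For the genes lower in CL the ratio in the low cells is given beside that in the chosen cells, and the difference of both was not tested. Gpx3, the secreted glutathione peroxidase, was at 802 CPM in Ctrl and 269 CPM in CL, a ratio of -1.58 [-1.63, -1.53], and had -1.63 [-1.67, -1.59] in the low cells. Agps, an enzyme of ether lipid synthesis, was at 522 and 181 CPM (-1.53, and -1.69 in low cells). Slc5a5, the sodium iodide symporter, was at 195 and 63.1 CPM (-1.63 and -1.38), Pdlim4 at 65.0 and 21.7 CPM (-1.58 and -1.51) and Lcmt1 at 136 and 58.5 CPM (-1.22 and -1.18). Golim4 was at 178 and 76.7 CPM (-1.21 and -0.96, and -0.94 in chosen cells without those that had 3 or more UMIs of other lineages' markers), and Crym, a thyroid hormone binding protein, at 133 and 46.0 CPM (-1.53 and -1.16). Of the Crym UMIs, 76.3% in Ctrl and 89.4% in CL lay in 10% of the chosen cells, and with Fgb alone as the rule its ratio was -0.65. Empty droplets moved the same way, for example from 695 to 145 CPM for Gpx3 and from 443 to 117 CPM for Agps. In chosen Ctrl cells Slc5a5 and Lcmt1 lay below their empty droplet levels of 231 and 181 CPM. Pdlim4 lay below its levels of 73.8 CPM in Ctrl and 37.5 CPM in CL. The part of free transcript in these ratios was not tested.

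Il33, an alarmin cytokine gene, was higher in chosen than in low cells in both libraries, by 0.91 and 1.27, and lower in CL. Its CL levels were under 50 CPM, so it did not pass the filter for the comparison of chosen with low cells. It was at 93.1 CPM in Ctrl and 29.5 CPM in CL, a ratio of -1.66 [-1.81, -1.50], and at 49.6 and 12.3 CPM in the low cells. It was found in 32.1% and 16.3% of chosen cells, and in 20.5% and 10.0% after thinning. Fxyd2, with -1.67 [-1.79, -1.55] in chosen and -0.90 [-0.94, -0.87] in low cells, had the lower ratio in the chosen cells. There it lay below its empty droplet levels, which were 624 CPM in Ctrl and 224 CPM in CL. The part of free transcript in its ratio was not tested. Defb1, a defensin gene, was at 125 and 49.4 CPM (-1.34 [-1.47, -1.22]) and had a ratio of -2.08 [-2.20, -1.97] in low cells, and 10% of the cells held 95.8% of its UMIs in Ctrl and 100.0% in CL. Reg3g, an antimicrobial lectin gene, was at 54.4 and 22.5 CPM (-1.27 [-1.46, -1.08]) and had a ratio of 0.39 [0.20, 0.57] in low cells, with 91.7% of its Ctrl UMIs in 10% of the cells and 124 UMIs in a single one. Its ratio was -0.54 with Aoc1 at 0 UMIs, and that of Defb1 was -0.58 with Upk3a alone as the rule.

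**Figure D5:**
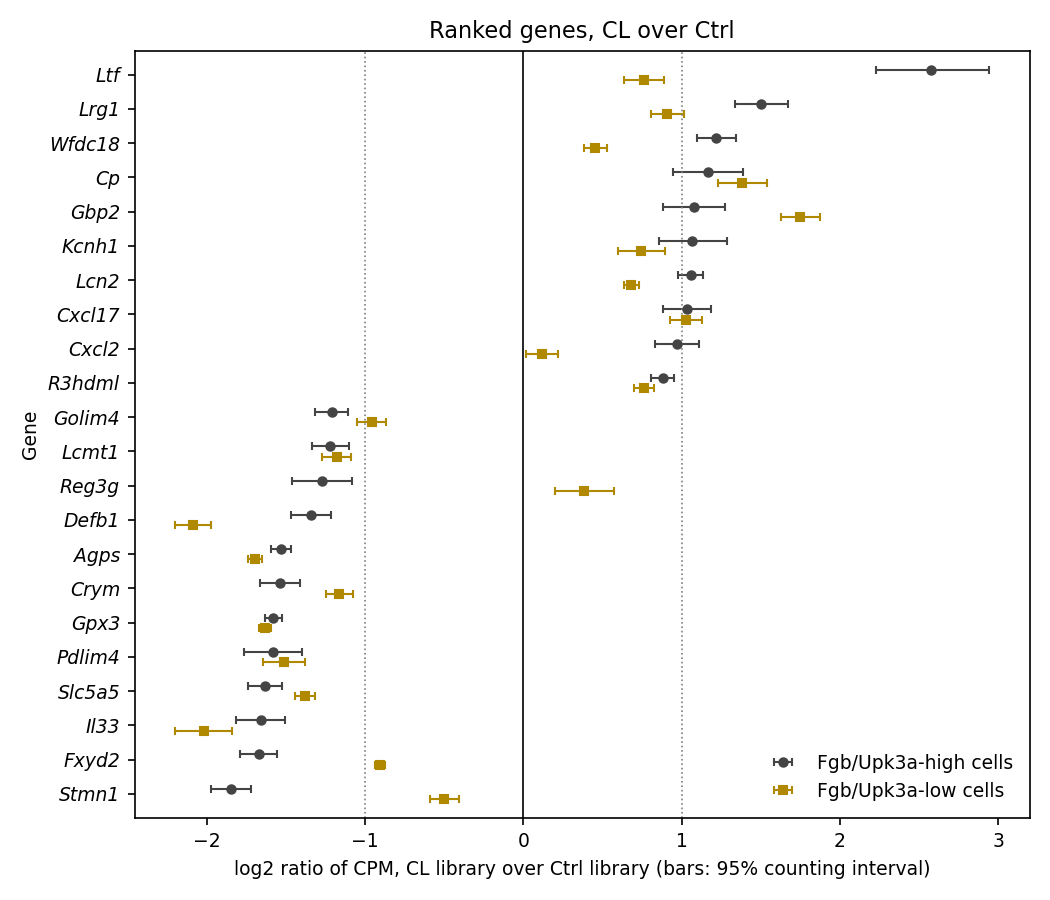
Log2 ratio of CPM in the CL library over the Ctrl library (horizontal axis, with 95% counting intervals) for 10 of the 12 highest and the 12 lowest genes in Fgb/Upk3a-high cells (circles), beside the ratio in Fgb/Upk3a-low cells (squares). Dotted lines mark 2-fold. The ratios in chosen and low cells are -1.58 and -1.63 for Gpx3, -1.84 and -0.50 for Stmn1 and -1.27 and 0.39 for Reg3g.

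Stmn1, a microtubule regulator of dividing cells, had the lowest ratio, from 156 CPM in Ctrl to 43.3 CPM in CL, -1.84 [-1.97, -1.72], and the list of cell division genes moved with it. The 15 genes of the list summed to 341 CPM in chosen Ctrl cells and 116 CPM in chosen CL cells, a ratio of -1.55 [-1.63, -1.47], against 236 and 147 CPM (-0.69) in low cells. Mki67 was at 19.1 and 3.70 CPM, Top2a at 39.4 and 8.95 CPM and Ube2c at 41.0 and 3.22 CPM. Of the 15 only Pcna passed the filter of 50 CPM, at 94.6 and 72.3 CPM, so no tested gene of the list was past 2-fold. The sum lay largely in few cells, more so in Ctrl than in CL. In Ctrl 33 of 368 chosen cells (8.97% [6.25, 12.4]) had 5 or more UMIs of 13 of these genes, leaving out Pcna and Mcm2, and held 92.0% of their UMIs. In CL they were 23 of 1055 (2.18% [1.39, 3.25]) and held 59.1% of the UMIs of these genes. Among low cells they were 3.36% [2.40, 4.56] and 1.97% [1.34, 2.81]. At 7228 UMIs, 9.82% [6.86, 13.5] of chosen Ctrl cells and 2.29% [1.44, 3.45] of chosen CL cells had 2 or more such UMIs. A further 35 and 90 chosen cells had 1. Thinned low cells with 2 or more were 3.90% [2.80, 5.27] in Ctrl and 2.89% [2.06, 3.93] in CL.

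Without the cells with 5 or more division UMIs, a limit set after the values were seen, the list ratio was -0.15 and Stmn1 was at 32.4 and 24.7 CPM. These cells were deep, with medians of 30434 UMIs in Ctrl and 32712 in CL, and without cells above the 95th percentile of UMIs the list ratio was -0.81. With Fgb alone as the rule it was -0.39 and with Upk3a alone -2.35. Empty droplets held 316 and 209 CPM of the list and 169 and 123 CPM of Stmn1, and the part of free transcript was not tested.

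Among all 23 lists, 2 sums passed 2-fold between the libraries in the chosen cells, cell division and the macrophage markers. Macrophage markers together had 5.85 CPM (Ctrl) and 11.9 CPM (CL), a ratio of 1.03 [0.58, 1.51], in low cells 1.28, and in empty droplets 126 and 322 CPM. With Fgb alone as the rule its ratio in the chosen cells was 0.93. Fibrinogen and acute phase genes were 3549 and 4624 CPM (0.38 [0.36, 0.40]), a sum that includes Fgb (1657 and 2225 CPM), by which the cells were chosen. Without Fgb the sum was 1892 and 2399 CPM (0.34 [0.32, 0.37]), of which Fgg made up 1382 and 1673 CPM. In the low cells Fgg had a larger ratio, 0.92 [0.89, 0.96], than the 0.28 [0.25, 0.31] of the chosen cells. Fgb left aside, 4 genes of this list passed. Of these 3 were higher in CL, as were 44.9% of all genes tested, and 2, Lcn2 and Cp, were past 2-fold, against 0.365% of all genes tested. Both lay below their empty droplet levels, and Cp passed the filter only through its CL level. Membrane transport was at -0.27, and of the 6 genes that passed 2 were higher and 4 lower in CL, with a median of -0.13. Slc5a5 was past 2-fold, and of the water channels Aqp5 was at 881 and 625 CPM (-0.50) and Aqp3 at 69.4 and 99.9 CPM (0.53 [0.39, 0.66]). Hormone receptors and regulators were at -0.08, and of the 9 that passed 7 were lower in CL, as were 55.1% of all genes tested, among them Stat5a (82.4 and 51.4 CPM, -0.68) and Gata3 (197 and 124 CPM, -0.66). The uroplakin sum (0.27) was nearly all Upk3a, which chose the cells, and without it was 51.4 and 31.6 CPM (-0.70 [-0.88, -0.52]). The sums of the Ly6 surface proteins (0.22), interferon genes (0.20), TNF and NF-kB (0.18), immediate early genes (0.11), keratins and adhesion (0.04), clotting (0.02), IL-6 family (-0.01), PI3K (-0.05) and ligands (-0.06) moved less. The MHC class II sum was 73.4 and 95.6 CPM (0.38), under the 417 and 836 CPM of empty droplets.

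Markers of other lineages were low in the chosen cells and mostly below the level of empty droplets. Basal markers together had 97.5 CPM (Ctrl) and 90.9 CPM (CL), against 1531 and 1520 CPM in empty droplets, and all 9 genes lay below that level in both libraries. Of the 8 macrophage markers all lay below it as well. Fibroblast markers summed to 42.1 and 31.1 CPM, endothelial markers to 13.3 and 21.7 CPM, pericyte markers to 38.6 and 32.6 CPM, T and NK markers to 11.6 and 21.1 CPM and B cell markers to 0.37 and 0.63 CPM. Csn2 and Wap, milk protein genes of the secretory list, had 0 UMIs. The secretory list as a whole was at 582 and 904 CPM (0.63 [0.59, 0.68]), against 4710 and 4832 CPM in empty droplets. The median chosen cell had 3 UMIs of the 44 basal, fibroblast, endothelial, pericyte and immune markers in Ctrl and 2 in CL, and the low cells had the same medians. Fibroblast markers were lower in chosen than in low cells, by -2.74 and -2.57, with Dcn, whose UMIs in low cells lay mostly in few cells as given above, making up most of the sum.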

How the data were processed

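Single-cell RNA of mouse mammary glands was measured in 1 Ctrl and 1 CL library. The authors deposited raw UMI counts per gene and barcode. Submitters' processing notes name Cell Ranger 2.1.1 and mm10, while the matrix headers name Cell Ranger 4. The labels name the single cell 3' v2 kit, and each matrix has 6794880 barcode columns. Per library the barcodes with most UMIs were taken, as many as the deposited barcode list has (7217 and 10555), and those with at least 500 genes and at most 15% mitochondrial UMIs were kept. Doublets were not called, and alternatives that leave out cells with other lineages' markers or very high UMIs stand in for this. The first of these left out 56.5% of chosen Ctrl cells and 45.6% of chosen CL cells.

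UMIs were summed per library and cell group and given as CPM. Intervals were exact, Poisson for CPM, Clopper-Pearson for shares and conditional binomial for log2 ratios, at 95%, and cover counting error only. A gene counted as past 2-fold by its point ratio, if it reached 50 CPM and 50 UMIs where it was higher. In ranking, a count of 0 was set to 3 counts, and no ratio is printed for such a gene. Mitochondrial, ribosomal protein, hemoglobin, Y-linked, Xist and unnamed genes were left out. Named genes were the 12 highest and 12 lowest ratios of each comparison, for chosen over low cells ranked by the weaker of both libraries, and genes of 23 lists with 236 entries. Some results by this rule are not reported here. The cells and lists were chosen with earlier results of these data known. Thinning drew 7228 UMIs per cell, the lower of the libraries' 10th percentiles over hormone luminal cells. The ratios were tested on simulated counts with known changes. Python 3.11.15, numpy 2.4.6, scipy 1.17.1, pandas 2.3.3 and edgeR 4.0.16 (TMM factors, an alternative) were used. Promoters are from RefSeq (GRCm38.p6), gene positions from GENCODE M21, where 32158 of 32285 gene identifiers matched. Alternatives are given in the closing section.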

Additional observations from a re-analysis of the deposited data

Results flagged for a closer look

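Of 68 gene lists and genes for which chosen and low cells were compared, 7 had log2 ratios of opposite sign in the 2 libraries with both counting intervals clear of 0. With 1 library per group the difference between libraries was not tested. The cell division list was at 0.5272 in Ctrl and -0.3375 in CL, and Stmn1, a microtubule regulator of dividing cells, at 0.7502 and -0.5949. The secretory luminal markers were at -0.1834 and 0.2649, and among genes abundant in secretory cells Wfdc18 was at -0.5323 and 0.2291 and Lcn2 at -0.2037 and 0.1694. Lrg1 was at -0.1806 and 0.4101. The Ly6 surface proteins were at -0.131 and 0.0145, both close to 0.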

How the results depend on the processing

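The log2 share ratio of 1.20 was 1.473 with a limit of 0.2%, 1.465 with Upk3a alone, 0.9911 without the Aoc1 limit, 1.556 with Aoc1 at 0 UMIs and 0.768 over cells with fewer than 5 Aoc1 UMIs, an alternative chosen after seeing the data. The CL share of 40.1% was 42.04% with at most 5% mitochondrial UMIs, 37.46% without that limit, 50% with a limit of 0.05%, 27.37% with 0.2%, 27.45% with Fgb alone, 19.1% with Upk3a alone and 37.78% with Aoc1 at 0. The Ctrl share of 17.4% was 23.65% with 0.05%, 9.858% with 0.2%, 11.52% with Fgb alone, 6.919% with Upk3a alone, 20.28% without the Aoc1 limit, 12.84% with Aoc1 at 0 and 24.07% over cells with fewer than 5 Aoc1 UMIs. The Fgg ratio of chosen over low cells in Ctrl, 1.73, was 1.78 without the mitochondrial limit, 1.776 with 0.05%, 1.518 with 0.2%, 2.186 with Fgb alone, 0.2914 with Upk3a alone, 1.83 without the Aoc1 limit, 1.537 with Aoc1 at 0, 2.177 without cells with 3 or more UMIs of other lineages, 1.825 without cells above the 95th percentile of UMIs, 1.946 as a mean of each cell's CPM and 1.837 without dividing cells. In CL, 1.09, it was 0.9886 with at most 5% mitochondrial UMIs, 1.122 with 0.05%, 1.005 with 0.2%, 1.04 thinned before the limit, 1.287 with Fgb alone, 0.1415 with Upk3a alone, 1.116 without the Aoc1 limit, 1.008 with Aoc1 at 0, 1.214 without other lineages, 1.127 without the deepest cells, 1.22 as a mean of CPM and 1.123 with TMM factors. Genes at least 2-fold higher in CL, 10, were 6 without other lineages, 6 without the deepest cells, 6 without dividing cells, 1 with a 200 CPM minimum and 361 with 10 UMIs as the only minimum. Lower genes, 15, were 40 with Upk3a alone, 2 with 200 CPM and 306 with 10 UMIs. Genes higher in chosen than low cells, 3, were 1 with Fgb alone, 1 with 200 CPM and 26 with 10 UMIs, and lower ones, 3, were 90 with 10 UMIs. List sums past 2-fold, 2, were 1 when thinned, 0 with Fgb alone, 4 without other lineages, 1 without the deepest cells and 0 without dividing cells. Removal of dividing cells and of barcodes kept in both libraries was also chosen after seeing the data. The cause of these shifts was not tested. Of 2051 alternatives for 108 single values 2021 kept the sign, and of 760 for the 40 values past 2-fold 683 stayed past it. No paired analysis was possible because each group is 1 library. Without replicates, the spread between animals is unknown, and levels of a few CPM rest on few UMIs.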
